A study of Mus musculus with 23 samples.

Results

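The loss of RAS was followed in 6 of 23 libraries of the series, all from naive mouse embryonic stem cells with an intact ERF gene. They were chosen by their labels: 3 libraries with RAS present (labelled WT_N, replicates 1 to 3) and 3 with RAS deleted (labelled RASKO_N, replicates 1 to 3), all grown in 2iL. The whole study crossed RAS, the transcription factor ERF and the culture medium. The design asks, in these 6 libraries, which genes change when RAS is removed from cells that are not being differentiated.

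All 6 libraries came from 1 genetic background, called Raslox/lox in the labels. It lacks H-Ras and N-Ras (H-Ras-/-; N-Ras-/-), carries a loxP-flanked RAS allele and expresses Ubiq-CreERT2, a Cre recombinase that works only when 4-hydroxytamoxifen (OHT) is given. The RAS-present libraries had neither OHT nor recombination, but they too lacked H-Ras and N-Ras, so they are not wild type for RAS. The RAS-deleted libraries had received OHT for 6 days. Since every RAS-deleted library and no RAS-present library had OHT, effects of the drug, of Cre activity and of the deletion cannot be told apart. For comparison, 2 further contrasts of RAS deletion were used: the same medium with the ERF knockout label (3 libraries against 3), and ERF wild type after 48 hours in FA, which contains the growth factors FGF2 and Activin (3 RAS-deleted libraries against 2 RAS-present ones). No label says that replicates were separate cultures, so p-values measure the spread between replicate libraries, which may be technical. That spread was estimated from all 23 libraries in 1 model, not from these 6 alone.

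RAS proteins are small GTPases that pass growth factor signals from receptors to the kinases RAF, MEK and ERK, and ERK in turn switches on feedback genes of the Sprouty and Dusp families. 2iL holds cells in the naive state of the early embryo by means of the cytokine LIF and of inhibitors of MEK and GSK3. The MEK inhibitor blocks the pathway below RAS, while the GSK3 inhibitor stabilises beta-catenin and so turns on Wnt target genes.

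Total counts of the 6 libraries ran from 17222023 to 29874207. Replicate 1 of each group stood apart from the others. Genes of chromosome 8 (576 genes with a mean of at least 5 CPM, counts scaled to a common library total) stood above the mean of the 6 libraries by a median of 0.24 on the log2 scale in RAS-present replicate 1 and by 0.19 in RAS-deleted replicate 1. In the other 4 libraries the same genes lay between -0.12 and -0.09. The 15 mitochondrial genes at that level stood at -0.25 in RAS-present replicate 1 and between 0.03 and 0.10 in the other 5 libraries. The 6 Y-linked genes ran from -0.28 to -0.04 with RAS present and from 0.09 to 0.31 with RAS deleted. Replicates 2 and 3 differed from each other less than either differed from replicate 1: a chi-square per degree of freedom was 3.70 against 15.9 and 22.4 with RAS present, and 3.04 against 6.82 and 7.04 with RAS deleted. The results below are given with all 6 libraries, and list counts and many single genes also without both replicate 1 libraries.

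**Figure D1:**
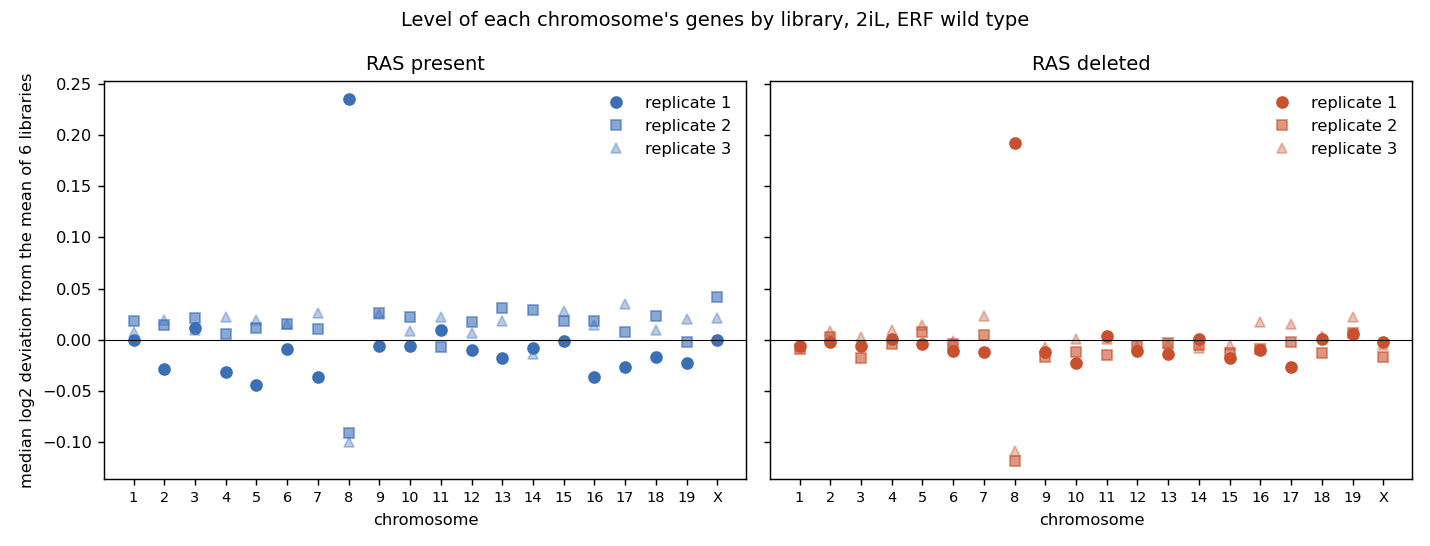
Median log2 deviation of each chromosome's genes from the mean of the 6 libraries, for autosomes and X and for genes with a mean of at least 5 CPM, with 1 symbol per library. Replicate 1 stands at 0.24 (RAS present) and 0.19 (RAS deleted) on chromosome 8, where the other 4 libraries lie between -0.12 and -0.09.

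Cells of both groups carried the marker profile of naive stem cells. Nanog, a core factor of the naive state, stood at 584, 609 and 626 CPM with RAS present and at 610, 525 and 541 CPM with RAS deleted. The summed level of 19 naive genes ran from 5289 to 6006 CPM with RAS present and from 5552 to 5822 CPM with RAS deleted. The corresponding sums were 332 to 384 and 304 to 326 CPM for 15 endoderm genes, 142 to 150 and 131 to 142 CPM for 14 trophoblast genes, 53 to 85.8 and 55.2 to 76.7 CPM for 12 neural genes, and 22.7 to 24.4 and 22.5 to 26 CPM for 12 mesoderm genes. In bulk RNA, fewer cells of a type and less RNA per cell cannot be told apart.

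Hras and Nras, the RAS genes labelled as disrupted in every library, still gave reads. Hras stood at 14.3, 15.4 and 14.9 CPM with RAS present and at 13.6, 14.1 and 12.7 CPM with RAS deleted. Nras stood at 31.7, 40.3 and 39.7 CPM with RAS present and at 41.2, 38.1 and 38.3 CPM with RAS deleted. Neither passed the test (edgeR quasi-likelihood test with Benjamini-Hochberg adjustment, adjusted p = 0.446 and 0.962). Erf stood at 70.6, 76.4 and 85.7 CPM with RAS present and at 90.2, 83.0 and 90.1 CPM with RAS deleted, and the groups overlapped (log2 fold change 0.18, edgeR adjusted p = 0.471). With the ERF knockout label it stood higher, at 96.1 to 129 CPM with RAS present and 130 to 172 CPM with RAS deleted. These counts per gene do not check the deletions, and the RAS and ERF states are used as labelled.

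Deletion of RAS in 2iL moved few genes by 2-fold or more. Of 20372 genes tested, 244 (1.2%) were called, meaning an adjusted p under 0.05 in edgeR's quasi-likelihood test and a change of at least 2-fold. The rises numbered 141 (0.692%) and the falls 103 (0.506%). Without the 2-fold minimum 1161 genes (5.7%) passed, 520 higher (2.55%) and 641 lower (3.15%). The ranges of the 2 groups did not overlap in 5549 genes (27.2%). The direction held for all 141 rises and for 102 of the 103 falls when both replicate 1 libraries were left out, but then only 40 genes (0.197%) were called, 36 of them among the 244. Leaving out RAS-present replicate 1 alone gave 70 calls (0.345%), and 372 genes at any size (1.83%; 0.694% higher and 1.14% lower). That library was the highest of the RAS-present group in 74 of the 103 falls. With RAS-deleted replicate 2, RAS-deleted replicate 3 or RAS-present replicate 2 left out, 116, 119 and 157 genes were called.

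Genes of the integrated stress response fell. In this response, kinases that sense amino acid shortage, unfolded protein, viral RNA or haem shortage phosphorylate the initiation factor eIF2, and the transcription factor ATF4 is then translated and drives genes for amino acid uptake and synthesis, transfer RNA charging and cell death. All 41 tested genes of a list of this response had a negative log2 fold change. Their median was -0.59, against 0.00 for all genes tested. Of the 41, 24 fell at an adjusted p under 0.05 (background for falls of any size 3.15%), 5 of these by 2-fold or more (background 0.506%), and 0 rose. In 37 of the 41 every RAS-deleted library lay below every RAS-present one, against 13.5% of all genes. The median was -0.59 also without both replicate 1 libraries, again with 41 of 41 genes lower; 8 of the 41 then passed (background 0.582%): Mthfd2, Wars, Eprs, Ddit3, Chac1, Slc3a2, Slc7a5 and Atf4. With 1 library left out at a time the median ran from -0.65 to -0.57 and 9 to 18 genes passed.

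Among the transcription factors of the response, Ddit3 (CHOP, a factor linked to cell death under stress) stood at 25.1, 26.8 and 21 CPM with RAS present and at 4.41, 4.67 and 3.78 CPM with RAS deleted. Its log2 fold change of -2.50 (SE 0.37, edgeR adjusted p = 0.000935) was the largest fall among the genes eligible for naming, and the call held in 6 of 6 fits that each left out 1 library. Atf4 itself stood at 161, 213 and 212 CPM with RAS present and 135, 140 and 143 CPM with RAS deleted, a log2 fold change of -0.49 (SE 0.12, edgeR adjusted p = 0.0245); it passed in 1 of the 6 fits with 1 library left out, that without RAS-present replicate 1, and reached 0.0924 in the others. Both groups were separate for each of these genes, and the step was far smaller in Atf4 than in Ddit3. Per length, Atf4 was the more abundant of the pair with RAS present, at 115 ± 24.1 TPM (SD, n = 3; TPM are the authors' values, which also allow for transcript length) against 34.5 ± 4.84 TPM for Ddit3. Cebpb and Cebpg, which encode bZIP partners of ATF4, fell by 0.88 and 0.49 on the log2 scale (edgeR adjusted p = 0.0223 and 0.0284), each passing in 2 of the 6 fits. Nupr1, a small stress-induced chromatin protein, went from 54.6, 36.5 and 29.9 CPM to 18.2, 11.8 and 12.3 CPM, a log2 fold change of -1.52 (SE 0.38, edgeR adjusted p = 0.0305; 0.171 without both replicate 1 libraries). Its call held in 2 of the 6 fits with 1 library left out, where the adjusted p reached 0.142.

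**Figure D2:**
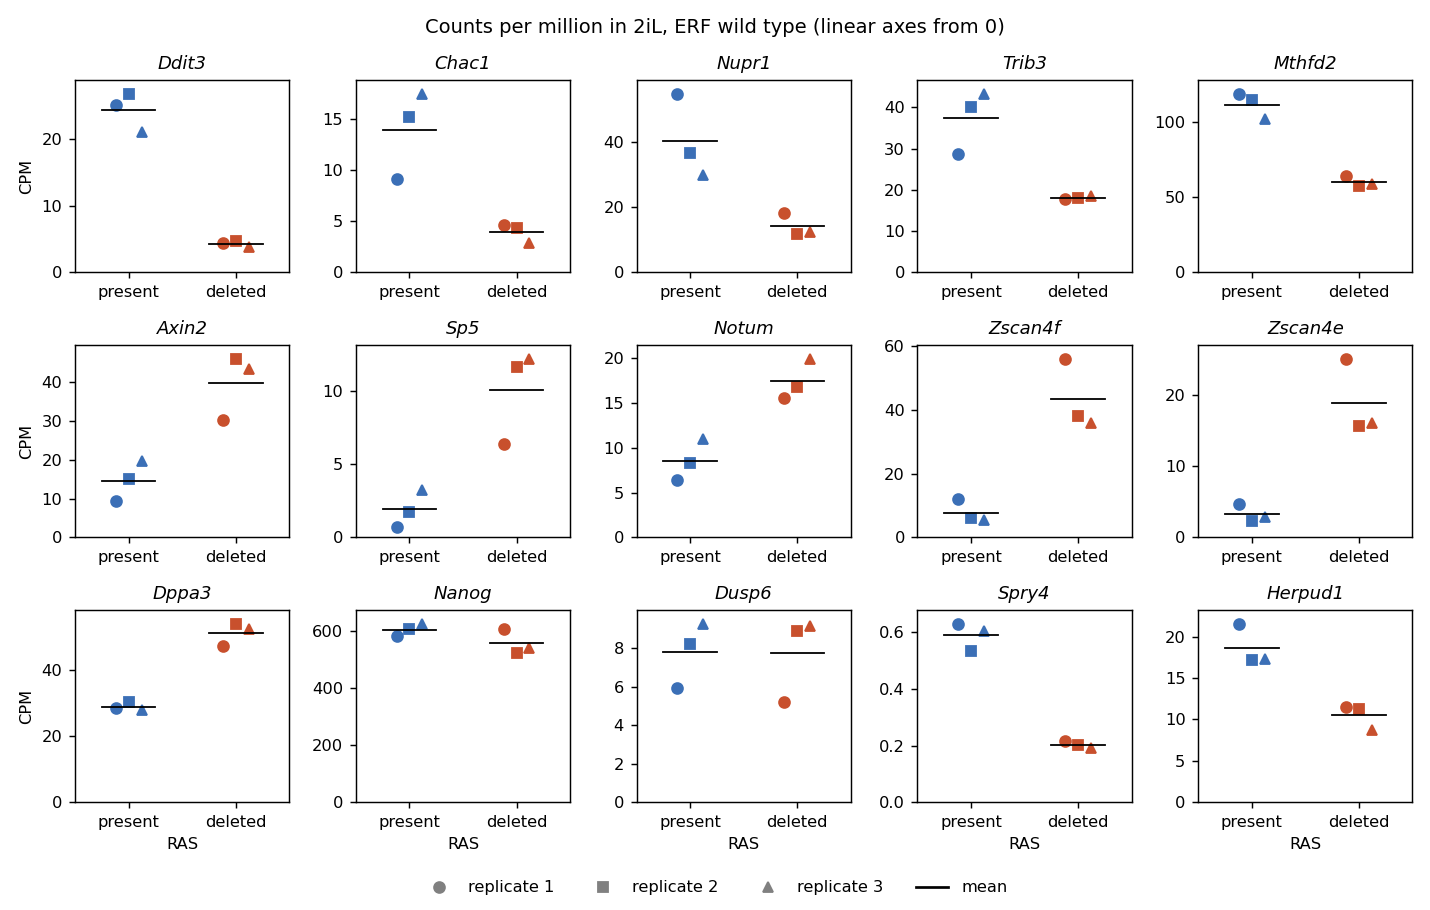
CPM of 15 genes in the 6 libraries, with 1 symbol per replicate and a bar at the group mean (n = 3); the axes are linear, start at 0 and differ between genes. In Ddit3 the RAS-present libraries lie between 21 and 26.8 CPM and the RAS-deleted ones between 3.78 and 4.67, while in Nanog and Dusp6 the groups overlap.

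Feedback and effector genes of the response moved the same way. Chac1, an enzyme that degrades glutathione, stood at 9.10, 15.2 and 17.4 CPM with RAS present and at 4.62, 4.31 and 2.90 CPM with RAS deleted. Its log2 fold change was -1.81 (SE 0.30, edgeR adjusted p = 0.00216), the groups did not overlap, and the call held in 6 of 6 fits with 1 library left out. Trib3, a pseudokinase that damps ATF4 and CHOP, went from 28.7, 40.1 and 43.2 CPM to 17.7, 18 and 18.6 CPM. Although its groups lay well apart, its log2 fold change of -1.04 only just passed (edgeR adjusted p = 0.0456) and was lost with any 1 of the 6 libraries left out (0.0636 to 0.126). Gdf15, a secreted stress hormone, had a log2 fold change of -1.05 (edgeR adjusted p = 0.0168), called in 3 of the 6 fits (adjusted p up to 0.116). Gdf15 lies on chromosome 8, and its highest library, at 23 CPM, was RAS-present replicate 1. Ddit4, an inhibitor of mTORC1, fell by 0.84 (edgeR adjusted p = 0.00635) and passed in 6 of 6 such fits.

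Some genes for one-carbon and amino acid metabolism fell, by less than 2-fold. Of 19 genes in a list of threonine, glycine and serine metabolism 3 fell (background 3.15%), 0 rose and the median was -0.10; 1 to 3 fell with 1 library left out. The 3, Mthfd2, Psph and Aldh1l2, are also in the stress response list. Mthfd2, a mitochondrial folate enzyme, stood at 119, 114 and 102 CPM with RAS present and at 64.0, 57.4 and 58.9 CPM with RAS deleted. Its log2 fold change of -0.89 (SE 0.10, edgeR adjusted p = 2.47e-05) passed also without both replicate 1 libraries (adjusted p = 0.000784). The other members of this kind that fell were Aldh18a1 by 0.66, Psph by 0.61, Cth by 0.78 and Aldh1l2 by 0.88 on the log2 scale. With 1 library left out Aldh18a1 passed in 5 of 6 fits, Psph in 2, Aldh1l2 in 1 and Cth in 0 (adjusted p from 0.0609 to 0.13 for Cth). Asns, the asparagine synthetase and a classical ATF4 target, did not follow: it stood at 520, 561 and 565 CPM with RAS present and at 576, 496 and 529 CPM with RAS deleted (log2 fold change -0.04, edgeR adjusted p = 0.954). Psat1, Phgdh and Shmt2 of the serine pathway had values of -0.36, -0.51 and -0.28 and did not pass.

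Among amino acid carriers, Slc3a2 and Slc7a5, the subunits of the LAT1 exchanger, fell by 0.67 and 0.85 on the log2 scale (edgeR adjusted p = 0.00353 and 0.00974). Slc7a5 lies on chromosome 8; it passed also without both replicate 1 libraries, at -0.77 (adjusted p = 0.0318), but in 3 of the 6 fits with 1 library left out it did not (adjusted p up to 0.0617). Slc7a1 and Slc1a4 fell by 0.42 and 0.49, passing in 6 and 0 of the 6 fits with 1 library left out. Slc7a11, the cystine carrier, had a value of -0.02 and overlapping groups at 1.40 to 1.86 CPM. Of the transfer RNA synthetase genes in the list, Wars fell by 0.79, Sars by 0.57, Eprs by 0.52, Gars by 0.49 and Nars by 0.45, while Aars and Cars did not pass. Sars passed in 1 of 6 fits with 1 library left out and Gars and Nars in 0 (adjusted p up to 0.141). Eprs stood at 541, 533 and 504 CPM with RAS present and at 373, 357 and 374 CPM with RAS deleted (SE 0.08, edgeR adjusted p = 0.000365), and Eprs and Wars passed in 6 of 6 such fits.

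The promoters of these genes were read for the C/EBP-ATF response element (CARE), the composite site that ATF4 and its C/EBP partners bind, in the form TTGCATCA on either strand. Promoter here means the 250 bases before to 50 bases after a gene's start in the RefSeq table of GRCm38.p6, which held 34 of the 41 genes. The element occurred in 10 of the 34 (29.4%), against 1.03% of all promoters in the table and 0.747% of those of tested genes. It was found in 4 of 19 genes that fell (21.1%) and in 6 of the other 15 (40%), so within the list these letters did not separate the genes that passed from those that did not. A match is a description of the letters and no measure of binding. The list was written as genes downstream of ATF4 and CHOP, so its share of such elements is no result of RAS deletion. The stretches below show the element in capitals, 5′ to 3′ on the gene's strand, for 3 genes that fell and for Slc7a11, which carries it on both strands and did not pass.
Chac1, chr2:119351023-119351082, plus strand, element 193 bases before the start: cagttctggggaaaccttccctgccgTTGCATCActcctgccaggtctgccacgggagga
Nupr1, chr7:126625547-126625606, minus strand, 110 bases before the start: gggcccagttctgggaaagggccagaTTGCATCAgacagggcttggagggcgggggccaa
Vldlr, chr19:27216794-27216853, plus strand, 200 bases before the start: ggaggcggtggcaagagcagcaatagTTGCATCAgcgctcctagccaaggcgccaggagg
Slc7a11, chr3:50443627-50443686, minus strand, 47 bases before the start: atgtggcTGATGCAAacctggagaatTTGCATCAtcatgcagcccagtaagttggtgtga

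The fall was compared with RAS deletion in the 2 other settings, which share no library with it. With the ERF knockout label in 2iL the same 41 genes had a median log2 fold change of -0.05, and 0 passed (background 1.31% at any size, 0.677% higher and 0.628% lower). The value was negative in 23 of the 41 genes and positive in 18. Ddit3 stood there at 23, 26.9 and 24.5 CPM with RAS present and at 17.7, 16.3 and 16.7 CPM with RAS deleted. Chac1 had a mean of 17.6 CPM with RAS present and of 9.31 CPM with RAS deleted. For both genes the ranges of the 2 groups did not overlap. With the replicate number added as a block, 9 of 40 genes were lower at an adjusted p under 0.05 (background 9.49%). In the same fit 3 were higher (background 10.5%). The test of the difference between the 2 RAS effects in 2iL had a median of 0.58 over the list and was positive in 39 of 41 genes. It passed for 5 of them (background 0.957% for positive differences and 1.57% for either sign): Mthfd2, Eprs, Wars, Slc3a2 and Ppp1r15a. For Ddit3 the difference was 1.95 and did not pass (edgeR adjusted p = 0.0563). In FA with ERF wild type the list fell further, with a median of -1.26, 36 of 41 genes lower at an adjusted p under 0.05 (background 21.5%) and 0 higher. Mthfd2 showed the order of the 3 settings, with log2 fold changes of -0.13 in 2iL with the ERF knockout label, -0.89 in 2iL and -1.60 in FA. The summed level of the 41 genes differed between the 2 RAS-present FA libraries themselves, at 4128 and 6412 CPM, and both lay above the 3 RAS-deleted ones at 2566 to 3032 CPM.

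**Figure D3:**
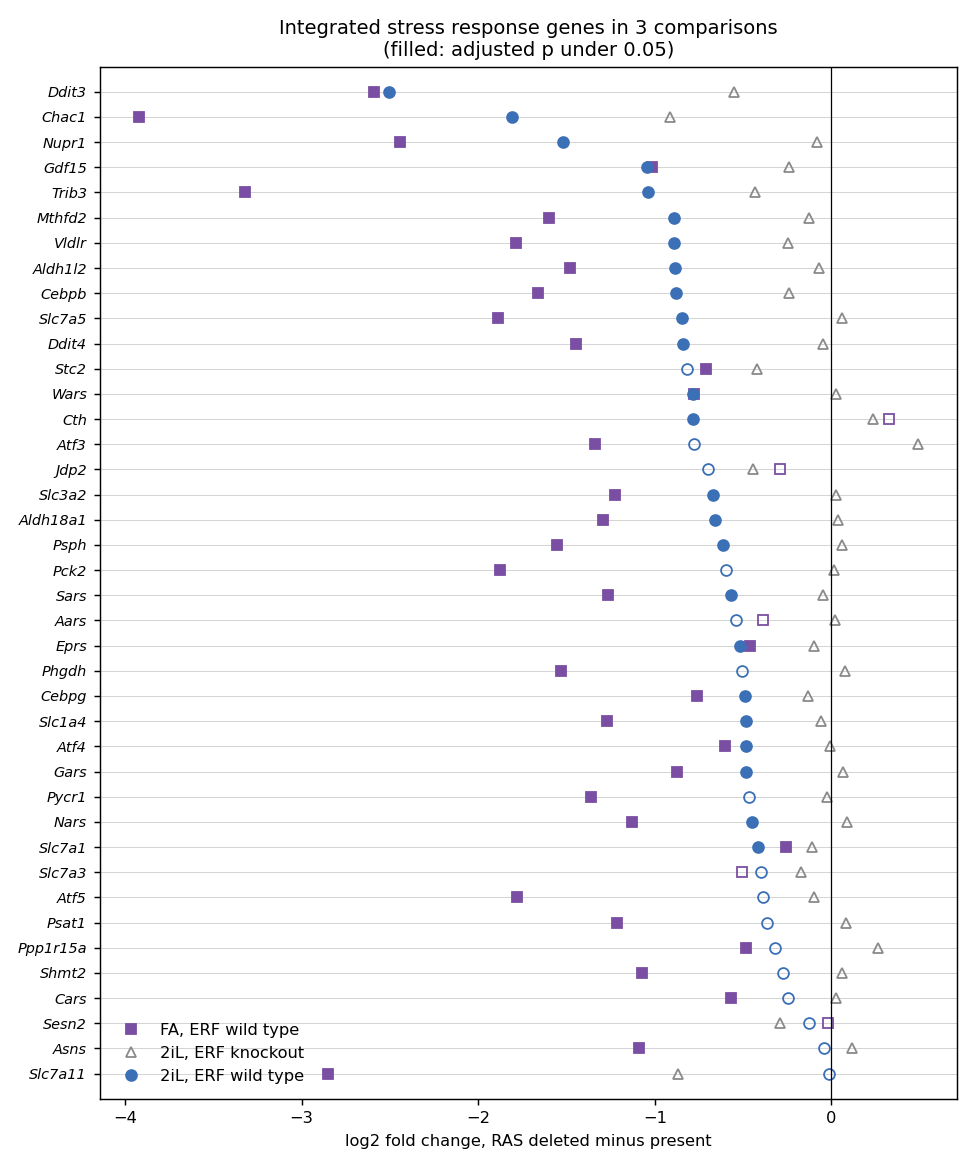
Log2 fold change for RAS deletion (x axis) of the integrated stress response genes (rows) in 2iL with ERF wild type (circles), 2iL with the ERF knockout label (triangles) and FA with ERF wild type (squares); filled symbols have an adjusted p under 0.05, and Fgf21, at or under 3 counts in every RAS-deleted 2iL library, is left out. Circles lie at or left of 0 in every row, triangles scatter around 0 and most squares lie further left.

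Chaperones and folding enzymes of the endoplasmic reticulum, which the unfolded protein response controls through XBP1 and ATF6 as well as ATF4, moved less. The median of 21 genes was -0.16, with 6 lower at an adjusted p under 0.05 (background 3.15%), 0 higher and 0 called at 2-fold (background 0.506%). With 1 library left out 3 to 6 genes passed, 3 of them without RAS-present replicate 1, and without both replicate 1 libraries 1 passed. Herpud1, a component of the degradation machinery, went from 21.5, 17.1 and 17.3 CPM to 11.5, 11.3 and 8.71 CPM, a log2 fold change of -0.84 (SE 0.14, edgeR adjusted p = 0.000935), and it was the 1 that passed without them (0.0186). Herpud1 lies on chromosome 8. Dnajc3, an inhibitor of the eIF2 kinase PERK, fell by 0.43, and Canx, Xbp1, Atf6 and Sel1l by 0.29 to 0.33; Dnajc3 and Canx passed in 6, Xbp1 in 4 and Atf6 and Sel1l in 2 of the 6 fits. Hspa5 (BiP), the main chaperone of the compartment, stood at 235, 217 and 236 CPM with RAS present and at 220, 218 and 222 CPM with RAS deleted and did not pass. In FA the list had the opposite sign, with a median of 0.65.

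Several Wnt target genes rose. Of 19 tested genes in a list of beta-catenin targets, 7 were higher at an adjusted p under 0.05 (background for rises of any size 2.55%), 5 of these by 2-fold or more (background 0.692%), and 0 were lower. The other 12 did not pass, and the log2 fold change was positive in 15 of the 19 genes and negative in 4. The median was 0.53, and 0.58 without both replicate 1 libraries, where 2 genes passed (background 0.35%). Axin2, a negative regulator of beta-catenin and the most widely used readout of the pathway, stood at 9.35, 15.0 and 19.6 CPM with RAS present and at 30.3, 46.1 and 43.6 CPM with RAS deleted. Its log2 fold change was 1.46 (SE 0.21, edgeR adjusted p = 0.000486; 0.000396 without both replicate 1 libraries). Sp5, a transcription factor that acts in the same feedback, went from 0.735, 1.73 and 3.25 CPM to 6.34, 11.6 and 12.1 CPM, a log2 fold change of 2.42 (SE 0.42, edgeR adjusted p = 0.00213; 0.00647 without both replicate 1 libraries). Within each group replicate 1 was the lowest library for both genes, and no RAS-deleted library came down to the RAS-present range. Both calls held in 6 of 6 fits with 1 library left out.

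Sp5 was also the one gene among 13 list members in the promoter table with the TCF and LEF core CTTTGAT, which occurs on either strand in 4.29% of all promoters; this motif was chosen after the list's values were seen. The stretch is chr2:70474793-70474852 of GRCm38.p6, plus strand, with the core in capitals.
Sp5, core 104 bases before the start: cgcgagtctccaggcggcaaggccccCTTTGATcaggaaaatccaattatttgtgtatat

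The other Wnt targets that passed had smaller changes or few reads. Notum, a secreted enzyme that inactivates Wnt ligands, went from 6.44, 8.33 and 11 CPM to 15.5, 16.8 and 19.9 CPM (log2 fold change 1.03, SE 0.23, edgeR adjusted p = 0.0112); its call was lost without RAS-present replicate 1 or without RAS-deleted replicate 3, where the adjusted p reached 0.0825. Cdx1 and Apcdd1 passed only just, at 0.67 and 0.64 (edgeR adjusted p = 0.0235 and 0.0445), and did so in 1 and 0 of the 6 fits with 1 library left out (up to 0.102 and 0.135). Cdx2 and T (Brachyury), regulators of posterior body formation, were called at 2 to 6 and 1 to 5 counts per RAS-present library against 17 to 38 and 6 to 17 counts with RAS deleted. The call of Cdx2 was lost without RAS-present replicate 1 (adjusted p = 0.0642), and T was called in 2 of the 6 fits. Lef1 and Tcf7, which encode DNA-binding partners of beta-catenin, had values of 0.93 and 0.23 and did not pass. The negative values, none of which passed, were those of Cdx4 (-0.93), Wnt3 (-0.42), Nkd2 (-0.12) and Wnt8a (-0.05).

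RAS deletion in FA did not raise most of these Wnt targets. There 12 of the 19 genes were lower at an adjusted p under 0.05 (background 21.5%) and 3 were higher (background 19.8%), with a median of -1.21. Axin2 had the opposite sign there, at -1.48 (edgeR adjusted p = 5.92e-05), and the difference between its 2 RAS effects was -2.94 (edgeR adjusted p = 1.06e-06). Across all genes that difference between the media was called for 11.9%, with 6.6% positive and 5.3% negative. Notum instead rose in FA by 4.06, Ccnd1 by 1.10 and Apcdd1 by 0.64. In 2iL with the ERF knockout label the list had a median of 0.16 and 12 of 19 positive values. Cdx1 passed there, at 0.91 (edgeR adjusted p = 0.017; 1 of 19 higher, background 0.677%), and 0 were lower. The difference between the 2 RAS effects in 2iL passed for 0 of the 19 genes (background 1.57%), so the Wnt list was not shown to respond differently by ERF label. With the ERF knockout label Axin2 stood at 14.8, 15.6 and 14.9 CPM with RAS present and at 20.3, 16.9 and 17.8 CPM with RAS deleted, a log2 fold change of 0.28 that did not pass (edgeR adjusted p = 0.609). The difference from the effect with ERF wild type, -1.18, did not pass either (edgeR adjusted p = 0.0521).

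Genes of the 2-cell-like state were higher in every RAS-deleted library. These genes mark a small and fluctuating share of stem cells that resemble the embryo just after its first division. The summed level of the 20 tested genes was 57.6, 35.1 and 41.7 CPM with RAS present and 243, 159 and 163 CPM with RAS deleted. All 20 had a positive log2 fold change, with a median of 2.22, or 2.16 with Tdpoz4, which was at or under 3 counts in each RAS-present library, at its bound. In 19 of the 20 the groups did not overlap, against 13.7% of all genes. Zscan4f, a telomere-associated factor that defines the state, stood at 12.0, 6.07 and 5.39 CPM with RAS present and at 56.1, 38.1 and 36.0 CPM with RAS deleted, a log2 fold change of 2.43 (SE 0.64, edgeR adjusted p = 0.0381). Zscan4e, Zfp352, Tcstv3, Usp17la and Tdpoz4 were called too, which made 6 of 20 (background 0.692%).

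The errors of this group were large in the fit of all 23 libraries. Leaving out 1 library left 1 or 2 of the 20 genes called, and leaving out both replicate 1 libraries left 0, with a median of 2.36. Zscan4f then had a log2 fold change of 2.70 and an adjusted p of 0.182. With DESeq2 in place of edgeR 15 of the 20 were called. Zscan4, Usp17l and Tcstv genes exist in near-identical copies among which the estimated counts may be divided, so the level of the group is better known than that of a single copy. In 2iL with the ERF knockout label the summed level was already 230, 299 and 105 CPM with RAS present, and 305, 390 and 149 CPM with RAS deleted. There the ranges of the 2 groups overlapped and 0 of the 20 genes passed in the test without pairs. Each RAS-deleted sum, though, lay above the RAS-present sum of the same replicate number. With that number added as a block, 10 of 18 genes were higher at an adjusted p under 0.05 (background 10.5%). The difference between the 2 RAS effects had a median of -1.81 and was negative in 20 of 20 genes, but passed for 0 of them. In FA 9 of the 20 were called higher (background 8.93%), from sums of 127 and 71.9 CPM to sums of 749, 356 and 167 CPM.

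**Figure D4:**
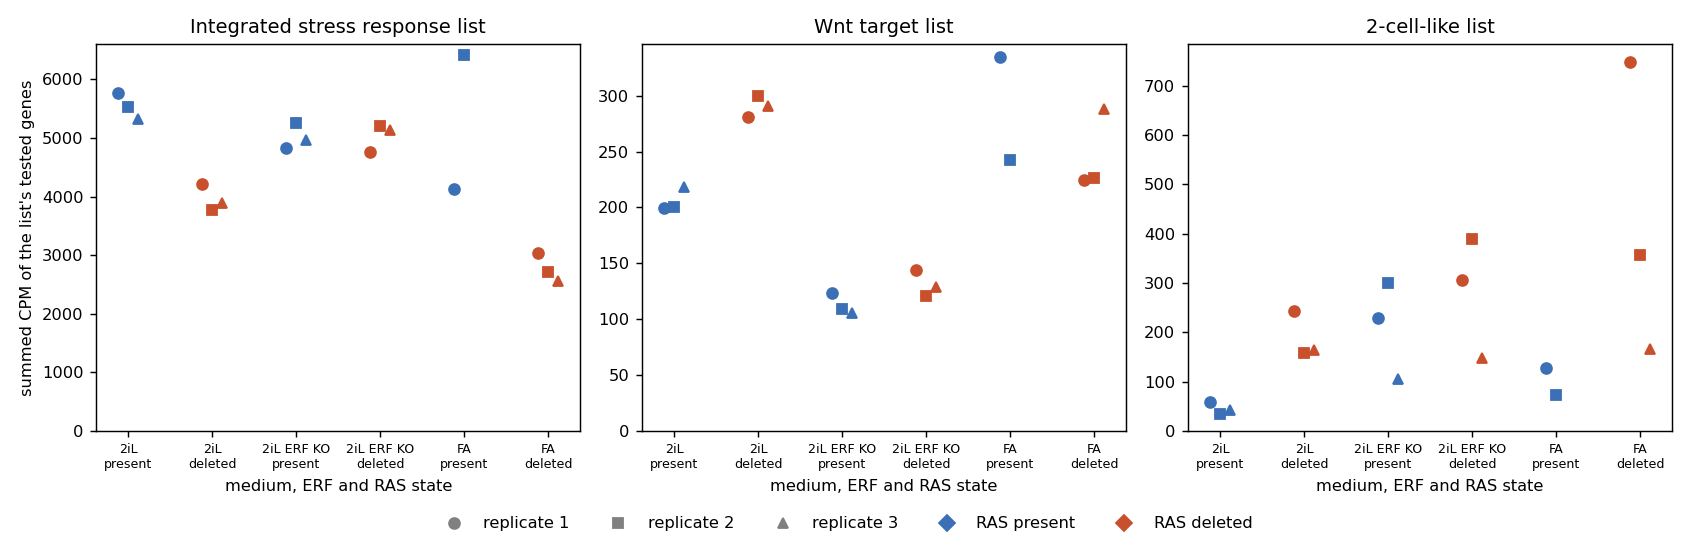
Summed CPM of the tested genes of 3 lists (41, 19 and 20 genes) in each library of 6 groups, with 1 symbol per replicate and linear axes from 0. In 2iL with ERF wild type the RAS-deleted libraries lie below the RAS-present ones for the stress response list and above them for the others. The 2-cell-like sums of the 2 groups labelled ERF knockout overlap, with each RAS-deleted sum above the RAS-present sum of the same replicate number.

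Few genes that report on ERK itself passed the test, in a medium that already contained a MEK inhibitor. Of 19 feedback and target genes of ERK, 0 were called by edgeR and 1, the phosphatase gene Dusp5, rose at an adjusted p under 0.05 (background 2.55%), by 0.64; Dusp5 passed in 2 of the 6 fits with 1 library left out (adjusted p up to 0.132) and not without both replicate 1 libraries (0.208). At an unadjusted p under 0.05 there were 4 higher and 4 lower. DESeq2 called 2 of the 19 lower, Spry4 and Dusp4. Dusp4 lies on chromosome 8 and stood at 12.8, 5.83 and 2.79 CPM with RAS present, highest in replicate 1, and at 3.25 to 3.49 CPM with RAS deleted, so the groups overlapped. The list median was 0.05. Dusp6, the phosphatase most closely tied to ERK activity, stood at 5.92, 8.21 and 9.24 CPM with RAS present and at 5.22, 8.88 and 9.15 CPM with RAS deleted. Spry4, a feedback inhibitor, was near the detection limit, at 18, 9 and 13 counts with RAS present and 4 counts in each RAS-deleted library (log2 fold change -1.52, SE 0.47, edgeR adjusted p = 0.0552). Etv4, an ETS activator downstream of ERK, had separate groups at 42.4, 52.8 and 53.7 CPM and 30.3, 38.0 and 40.4 CPM, but its value of -0.45 did not pass (edgeR adjusted p = 0.120). In FA, without the inhibitor, 11 of the 19 were called lower (background 8.33%), with Dusp6 at -2.89. Of 14 immediate early genes 0 passed in 2iL; Fos had a value of -0.62 (edgeR adjusted p = 0.120).

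Upstream, the list of 21 RAS regulators had 1 call (background 1.2%). Rasgrp1, an exchange factor that activates RAS, went from 2.49, 2.62 and 2.93 CPM to 6.29, 6.54 and 6.24 CPM, a log2 fold change of 1.25 (SE 0.34, edgeR adjusted p = 0.0317). These 6 values barely varied within groups, while the spread used by the test came from all 23 libraries. The call held in 1 of 6 fits with 1 library left out (adjusted p up to 0.133). Of 28 RAF, MEK, ERK, PI3K and RAL effector genes only Ksr2, a scaffold of the RAF-MEK complex, passed, at 0.72 (background 5.7%), and it did so in 1 of the 6 fits with 1 library left out. Among 16 RAS family genes 0 passed. Fgf4, the FGF ligand that stem cells make themselves, stood at 225, 183 and 171 CPM with RAS present and at 145, 137 and 143 CPM with RAS deleted, a log2 fold change of -0.44 (SE 0.11, edgeR adjusted p = 0.0238; 0.256 without both replicate 1 libraries).

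The naive state was retained by most of its markers. Of 19 naive genes 1 rose (background 2.55%) and 1 fell (background 3.15%), and the median was 0.05. The rise was Dppa3 (Stella), at 28.6, 30.4 and 27.8 CPM with RAS present and 47.2, 54.0 and 52.4 CPM with RAS deleted, a log2 fold change of 0.82 (SE 0.20, edgeR adjusted p = 0.0186). The groups lay far apart, but the test passed in 2 of 6 fits with 1 library left out. The fall was Fgf4, and neither passed without both replicate 1 libraries. Esrrb, Klf4 and Pou5f1 had values of -0.12, -0.05 and -0.13 and did not pass. Of 19 primed genes only Utf1 passed, at -0.39 (background for falls 3.15%; 0 of the 6 fits with 1 library left out), and the median was -0.03. In FA, by contrast, 15 of the 19 naive genes were higher (background 19.8%), with a median of 2.39.

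Genes of early lineages gave isolated calls. Sox1, a neural progenitor factor, went from 12.9, 8.15 and 8.04 CPM to 3.98, 5.12 and 4.94 CPM, a log2 fold change of -1.07 (SE 0.17, edgeR adjusted p = 0.000919). Sox1 lies on chromosome 8. Its highest library was RAS-present replicate 1, the library with the highest neural marker sum, and without both replicate 1 libraries the value was -0.69 (adjusted p = 0.0480). Zic1 was called lower at under 1 CPM in every library, in 1 of the 6 fits with 1 library left out. The part that replicate 1 played in the Sox1 call beyond these values was not tested. Of 15 endoderm genes 0 passed, and the single trophoblast and mesoderm calls were Cdx2 and T, described above.

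Smaller shifts were seen in metabolic and stress lists. Targets of NRF2, the regulator of antioxidant genes, had a median of 0.22 over 14 genes; 4 passed, all higher (background 2.55%), but 1 to 3 did with 1 library left out and 1 without both replicate 1 libraries. Srxn1 (sulfiredoxin) went from 9.24, 13.6 and 14 CPM to 15.6, 22.5 and 24.9 CPM, a log2 fold change of 0.79 (SE 0.16, edgeR adjusted p = 0.00645; 0.00586 without both replicate 1 libraries). Its groups did not overlap, though it missed the threshold without RAS-present replicate 1 (0.0512), and Nqo1, Gclc and G6pdx rose by 0.51, 0.36 and 0.32, passing in 1, 4 and 1 of the 6 fits. Of 29 sterol synthesis genes 6 fell (background 3.15%), by 0.29 to 0.54, with 3 to 6 doing so with 1 library left out and 3 without both replicate 1 libraries. Pmvk, Cyp51 and Srebf2 passed in 6 of 6 fits with 1 library left out. Pdk1, a kinase that inhibits pyruvate dehydrogenase, fell by 0.90 (edgeR adjusted p = 0.000645). Of 22 p53 targets 2 fell (background 3.15%) and 2 rose (background 2.55%), and the median was 0.04; without both replicate 1 libraries 1 fell and 0 rose. Rrm2b, a ribonucleotide reductase subunit, went from 30.9, 22.3 and 26.2 CPM to 14.3, 14.1 and 12.9 CPM (log2 fold change -0.95, SE 0.11, edgeR adjusted p = 2.47e-05) and passed in 6 of 6 such fits. Cdkn1a (p21) had a value of 0.32 and did not pass (edgeR adjusted p = 0.335).

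**Figure D5:**
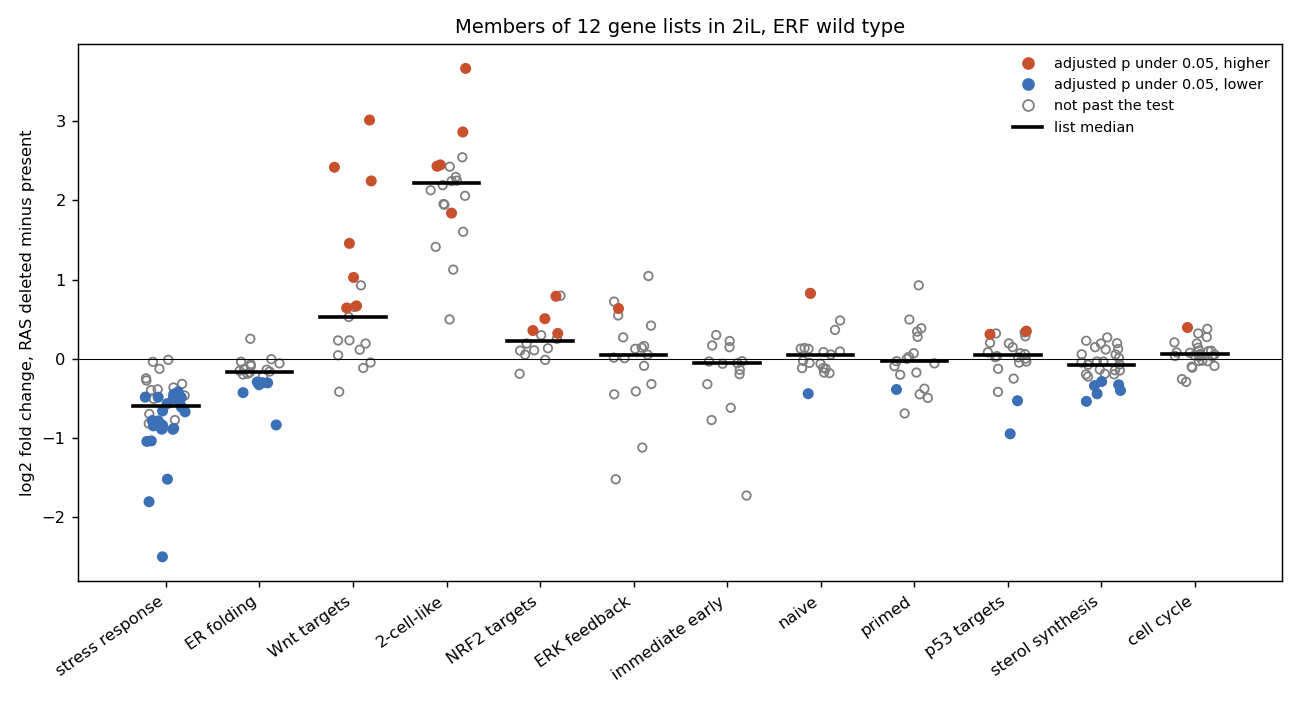
Log2 fold change for RAS deletion in 2iL with ERF wild type of the members of 12 gene lists, with 1 point per gene, filled where the adjusted p is under 0.05, and a bar at the list median; genes with no more than 3 counts in any library of 1 of the groups count in the median but have no point. The medians are -0.59 for the stress response, 0.53 for Wnt targets and 2.22 for the 2-cell-like list, and between -0.16 and 0.22 for the other 9.

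Single genes outside the lists were named by the size of their change. Pdzrn4, a RING finger and PDZ domain protein, had the largest rise of the named genes outside the lists, from 0.280, 0.595 and 0.975 CPM to 3.06, 7.51 and 6.34 CPM. Its call held in 6 of 6 fits with 1 library left out. Abcg1, a cholesterol exporter, went from 6.83, 4.82 and 2.65 CPM to 14.2, 12.5 and 13.7 CPM (log2 fold change 1.48, SE 0.23, edgeR adjusted p = 0.000869). Sstr5, a somatostatin receptor, and Cttnbp2, a cortactin-binding protein, rose by 1.47 and 1.35. Sp100, a nuclear body protein, rose by 1.51, and these 5 genes were called in 6 of 6 such fits. Dnah10, a ciliary dynein, and Adgrg6, an adhesion receptor, had values of 1.55 and 1.20 and lost the call without RAS-present replicate 1 (adjusted p = 0.0524 and 0.0622). Ddr2, a collagen receptor, at 1.19, was called in 1 of the 6 fits (adjusted p up to 0.149).

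Among the falls, Fam13c went from 11.2, 10.1 and 9.43 CPM to 4.03, 2.59 and 2.57 CPM, a log2 fold change of -1.75 (SE 0.19, edgeR adjusted p = 2.47e-05) that passed also without both replicate 1 libraries (0.000222). Ubap1l fell by 1.72 from 13.3, 12.6 and 11.9 CPM to 4.57, 3.45 and 3.44 CPM. Acot2, a mitochondrial acyl-CoA thioesterase, fell by 1.29, and Angptl6, a secreted angiopoietin-like factor, by 1.25. Fam13c, Ubap1l, Acot2 and Angptl6 were called in 6 of 6 fits with 1 library left out. Tsc22d3 (GILZ), a glucocorticoid-induced regulator, and Lipg, a lipase, fell by 1.46 and 1.33 and were also called in 6 of 6. Several other falls leaned on single libraries. Trf (transferrin) stood at 9.45, 4.40 and 2.32 CPM with RAS present and at 2.04, 1.62 and 1.45 CPM with RAS deleted, and its value of -1.70, which lost the call in 2 of the 6 fits (adjusted p up to 0.0544), became -1.10 without both replicate 1 libraries (adjusted p = 0.0686). Atp1b2, Nuak1, Tgm2 and B4galnt2, at -1.27, -1.32, -1.25 and -1.82, lost the call without RAS-present replicate 1; Nuak1 and Tgm2 then still had an adjusted p under 0.05 but less than a 2-fold change. Atp1b2 and B4galnt2 were called in 4 and 3 of the 6 fits, so other libraries decided their calls too (adjusted p up to 0.054 and 0.0908).

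The 244 called genes were then followed into the other settings. With the ERF knockout label 101 of the 141 rises (71.6%) and 76 of the 103 falls (73.8%) had the same sign, with 1 and 2 called (background 0.0687% for rises and 0.142% for falls). Fam13c, Abcg1 and Cttnbp2 passed there as well, at -0.68, 0.92 and 1.04. In FA 109 rises (77.3%) and 81 falls (78.6%) had the same sign, with 43 and 44 called the same way and 8 and 8 the opposite way (background 8.93% for rises and 8.33% for falls). Ddit3, Chac1, Nupr1, Ubap1l, Tsc22d3 and Lipg were lower in both media, and Sstr5 was higher in both. Axin2, Cttnbp2, Nuak1 and Atp1b2 had calls of opposite sign in the 2 media.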

How the data were processed

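RNA was depleted of ribosomal RNA, made into strand-specific libraries and read as 75-base pairs, per the labels' protocols. The submitters' processing notes name bcl2fastq 2.20.0, fastp 0.20.0, Salmon and the mm10 build; the Salmon version and transcriptome are not given in the sources used here. The authors deposited estimated counts per gene from Salmon and TPM values, per the file headers, and a matrix equal to the rounded counts. Salmon divides reads among similar transcripts, so counts of close copies are uncertain. Gm26917, singled out after its values were seen, took 24.2 to 26.6% of the 6 libraries.

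Rounded estimated counts, deposited without normalization, were tested with edgeR 4.0.16 (filterByExpr, TMM, robust quasi-likelihood, 1 model of all 23 libraries, adjustment over 20372 of 53607 genes). CPM are counts over the TMM-scaled total; deposited TPM served only to compare levels between genes. The fit was tested on simulated data. Same-numbered samples deviated together only weakly (correlations 0.179, 0.0368 and 0.0992, and 0.140, 0.0744 and 0.184 with the ERF knockout label, where pairing required each to exceed 0.1), so the tests did not use the numbers as pairs. No label mentions molecular identifiers, so read counts can include copies of 1 molecule.

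The comparison and its 31 gene lists were chosen with earlier results of these data known. Named genes are Hras, Nras, Erf, called list members, for lists with 3 or fewer calls the 2 members with the smallest p, and the 14 largest rises and falls among called genes with separate ranges (which also gives 3 same-numbered differences of the same sign) and a mean of at least 5 CPM in the higher group, without predicted genes and pseudogenes; further list members were named after their values were seen. Another of the targeted genes is left out of the text. Chromosomes came from GENCODE M21 for 20264 genes, and promoter sequences from RefSeq GRCm38.p6. Alternatives were DESeq2 1.42.0, RLE scaling, no filter, effective length offsets, a fit without the robust option, only the compared groups, a replicate block and left-out libraries; leaving out both replicate 1 libraries or chromosome 8 was added after seeing the data.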

Additional observations from a re-analysis of the deposited data

Results flagged for a closer look

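The RAS effect in 2iL differed between the ERF knockout label and ERF wild type for 77 genes, 0.378% of those tested. The rule was an adjusted p under 0.05 in edgeR's quasi-likelihood test of the difference and 2-fold. Without RAS-present replicate 1 of ERF wild type 40 genes passed, 34 of them among the 77. Named genes among the 77 were Tgm2, with a difference of 1.65 on the log2 scale (edgeR adjusted p = 0.00458), Nuak1 with 1.57 (0.0187) and Fam13c with 1.07 (0.0342). They were named for their fall with ERF wild type, which enters the difference, so that choice favours a difference. Tgm2, a transglutaminase, fell with ERF wild type and stood at 51.2, 46.6 and 43.9 CPM before and 57.4, 60.1 and 69.6 CPM after RAS deletion with the ERF knockout label.

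With ERF wild type the RAS effect in FA minus that in 2iL passed for 2425 genes (11.9%). The genes given here were named for their effect in 2iL, which enters this difference too. Named genes with a more negative effect in FA were Cdx2 at -5.76, Pdzrn4 at -5.03, Axin2 at -2.94, Cttnbp2 at -2.44, Trib3 at -2.28, Chac1 at -2.11, Ubap1l at -1.42, Sox1 at -1.37, Dnah10 at -1.28 and Adgrg6 at -1.13. The fitted value of Tdpoz4, -3.81, rests on at most 2 counts per RAS-present 2iL library and is no bound. That of Cdx2 rests on few reads too, at 0.72 and 0.19 CPM with RAS present in FA and 0 to 0.18 CPM with RAS deleted. Named genes with a more positive effect were Ddr2 at 3.08, Notum at 3.03, Nuak1 at 2.85, Atp1b2 at 2.84 and Fam13c at 1.51. Ddr2 and Notum rose in both media, while Nuak1 and Atp1b2 fell in 2iL and rose in FA. The causes of these differences were not tested.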

How the results depend on the processing

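The 244 calls became 1161 without the 2-fold minimum, 559 without a filter on low counts, 40 without both replicate 1 libraries (20 higher and 20 lower) and 70 to 305 with 1 library left out. DESeq2 gave 275, RLE scaling 237, effective length offsets 199, a fit without the robust option 279, and 227 lay outside chromosome 8. With only the compared groups 239 were called, 184 higher and 55 lower against 141 and 103; with the replicate number added as a block, 360 (252 higher and 108 lower, 192 shared with the 244). The block gave 16 of 18 genes of the 2-cell-like list higher (6 of 20 without it), 37 of 40 stress response genes lower (24 of 41) and 8 of 14 Wnt targets higher (7 of 19), all at any size, against 8.11% and 8.42% of all genes higher and lower. The 43 calls under the ERF knockout label became 78 (DESeq2), 266 (any size), 240 (no filter), 75 (only the compared groups), 207 (replicate block) and 17 to 40 (1 library left out). With that label the block gave 10 of 18 genes of the 2-cell-like list higher at any size (0 without it), 5 of 13 Wnt targets higher (1 of 19) and 0 lower, and 9 of 40 stress response genes lower and 3 higher (0 without it), against 10.5% and 9.49% of all genes higher and lower. Each of those 6 libraries correlated best with its own number. The 77 differences by ERF became 147, 320, 457 and 154 under DESeq2, any size, no filter and the block, 28 without both replicate 1 libraries and 26 to 159 with 1 left out. The 2425 differences by medium became 4988 at any size and lay between 1990 and 2650 otherwise, with 2124 under the block. No direction reversed among the called named genes; of 1259 refits of named genes 105 lost and 11 gained a call. The cause of these shifts was not tested. With 3 libraries a group and 17222023 to 29874207 counts, genes under about 1 CPM, such as Spry4, T and Tdpoz4, rest on few reads.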

Other observations

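Of 6 Y-linked genes with a mean of at least 5 CPM, Uba1y, singled out after its values were seen, passed, at 7.97 to 12.1 CPM with RAS present and 18.2 to 25.8 CPM with RAS deleted, a log2 fold change of 0.99 (SE 0.16, edgeR adjusted p = 0.00105). The other 5 did not pass, all with positive values: 0.55 for Gm47283, 0.36 for Ddx3y (adjusted p = 0.0536), 0.26 for Uty, 0.16 for Gm37158 and 0.05 for Eif2s3y. The median of the 6 was 0.31.

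Of the 21 tested germline genes Ddx4 and Tex11 fell (background for falls of any size 3.15%), by 0.67 and 0.61 on the log2 scale (edgeR adjusted p = 0.0460 and 0.0364). Of 22 imprinted genes Phlda2 and Dlk1 fell (background 3.15%), by 0.87 and 0.78 (edgeR adjusted p = 0.0308 and 0.0463), at under 6 CPM in every library. Of 14 LIF pathway genes 2 fell (background 3.15%) and 0 rose. Socs3, the main feedback inhibitor of the pathway, went from 53.5, 49.2 and 47.9 CPM to 30.3, 34.2 and 33.7 CPM. Its log2 fold change was -0.62 (edgeR adjusted p = 0.0384), and Socs2 fell by 0.31. Of 20 genes of the Nodal, Activin and BMP pathways 1 rose (background 2.55%) and 1 fell (background 3.15%). Nodal rose by 0.52 and its co-receptor gene Tdgf1 fell by 0.60 (edgeR adjusted p = 0.0229 and 0.0103). None of these 8 genes passed without both replicate 1 libraries, where their adjusted p values ran from 0.0758 to 0.495.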
